A study of Homo sapiens with 10 samples.

Results

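RNA polymerase II was compared with H3K9me3, the trimethyl mark of heterochromatin, over the chromosomes of HCT116 cells. HCT116 is an established human colorectal carcinoma line, and the samples were untreated wild type cells profiled by CUT&Tag. In this method an antibody brings a transposase (pAG-Tn5) to a chromatin protein, and the enzyme tags the DNA around it. The members were every peak of the POLR2A list (the largest polymerase II subunit) and of the H3K9me3 list on chromosomes 1 to 22 and X, which gave 19997 and 16414 peaks. Together these were 36411 of the 57404 peaks on those chromosomes in the 4 lists of the series. The other lists were H3K4me3, a mark of promoters, with 17181 peaks, and POLR1A, of RNA polymerase I, with 3812. The POLR2A and H3K9me3 groups held 3 samples each, and 100000 to 200000 cells entered a replicate. Each target had 1 peak list, so values have no error over replicates and none is a test between conditions. The 95% intervals are exact for shares (Clopper-Pearson), medians (order statistics) and the density ratio (Poisson). Those of odds ratios are large-sample approximations (Robins-Breslow-Greenland variance). All cover counting error only. Peaks that lie next to each other are not independent.

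Polymerase II transcribes protein-coding genes, and CUT&Tag with an antibody to its largest subunit gives the strongest signal near the starts of active genes. H3K9me3 is laid down by enzymes such as SETDB1 and SUV39H1 and is bound by HP1 proteins. It covers repeats around centromeres and chromosome ends, arrays of zinc finger genes and silent tissue-specific genes. In a differentiated or tumour cell many long neuronal genes are silent.

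The lists differed in what they marked. POLR2A peaks had a median width of 244 bp and covered 5.95 Mb, and H3K9me3 peaks had a median width of 496 bp and covered 9.50 Mb. Of POLR2A peaks, 37.1% had a summit within 1 kb of an end of a protein-coding gene, 37.0% lay in the body of one and 18.6% were intergenic. For H3K9me3 these shares were 2.41%, 28.2% and 53.2%. The fold enrichment of a peak over its local background is the authors' value and is used only within its own list. Its median was 5.47 for POLR2A and 4.61 for H3K9me3. Of 18 colorectal epithelial markers, 10 had a POLR2A peak at an end (30.8 to 78.5%), against 41.3% of all protein-coding genes. The highest were SOX9, EPCAM and KRT19, with fold enrichments of 16.2, 12.5 and 11.3. POLR2A stood at 1 of 12 fibroblast markers (ACTA2) and 3 of 12 leukocyte markers (CD68, CD8A and CD14). H3K9me3 was in the body of 1 colorectal marker, MUC2 (5.42), and 1 fibroblast marker, PDGFRA (6.72), both without POLR2A. It was in none of the leukocyte markers and in 13.6% of all protein-coding genes. Margins, defined as the 500 kb next to the outermost genes of each chromosome and the gene-free intervals over 2 Mb with 500 kb on both sides, held 2.29% of POLR2A and 5.71% of H3K9me3 peaks.

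The promoters printed here show the kinds of gene end that the comparison turned on, all from genes with H3K9me3 in the body. Each run is 300 bases, from 250 before to 50 after the annotated start, read 5′ to 3′ from RefSeq (GRCh38.p14), with every CG pair in capitals. ACSL3 and CCSER1 had POLR2A at the promoter, and EML1, PCDH15, DPP6 and ZNF583 did not.
ACSL3 chr2:222860786-222861085 (plus strand): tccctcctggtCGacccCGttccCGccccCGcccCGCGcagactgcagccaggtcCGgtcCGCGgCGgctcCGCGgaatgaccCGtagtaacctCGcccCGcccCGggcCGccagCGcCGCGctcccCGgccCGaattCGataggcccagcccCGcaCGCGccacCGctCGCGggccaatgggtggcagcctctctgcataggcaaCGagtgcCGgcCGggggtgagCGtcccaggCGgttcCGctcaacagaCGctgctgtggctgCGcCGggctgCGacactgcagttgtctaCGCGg
CCSER1 chr4:90127144-90127443 (plus strand): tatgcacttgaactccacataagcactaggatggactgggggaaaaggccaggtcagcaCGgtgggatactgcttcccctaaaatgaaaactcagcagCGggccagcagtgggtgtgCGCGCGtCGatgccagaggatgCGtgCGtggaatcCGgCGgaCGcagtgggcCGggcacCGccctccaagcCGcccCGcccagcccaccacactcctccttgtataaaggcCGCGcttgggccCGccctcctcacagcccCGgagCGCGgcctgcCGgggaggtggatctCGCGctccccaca
EML1 chr14:99737472-99737771 (plus strand): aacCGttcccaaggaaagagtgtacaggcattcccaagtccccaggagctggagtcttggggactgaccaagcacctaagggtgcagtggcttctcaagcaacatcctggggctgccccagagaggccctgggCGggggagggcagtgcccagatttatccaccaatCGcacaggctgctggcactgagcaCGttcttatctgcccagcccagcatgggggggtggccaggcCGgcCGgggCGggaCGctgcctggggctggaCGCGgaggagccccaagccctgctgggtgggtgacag
PCDH15 chr10:55627893-55628192 (minus strand): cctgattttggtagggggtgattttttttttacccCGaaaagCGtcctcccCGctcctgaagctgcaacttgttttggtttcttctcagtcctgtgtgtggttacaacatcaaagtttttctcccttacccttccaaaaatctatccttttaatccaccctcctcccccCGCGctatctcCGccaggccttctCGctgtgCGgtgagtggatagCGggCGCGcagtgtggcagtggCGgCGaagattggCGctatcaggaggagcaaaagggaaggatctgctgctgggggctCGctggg
DPP6 chr7:153747883-153748182 (plus strand): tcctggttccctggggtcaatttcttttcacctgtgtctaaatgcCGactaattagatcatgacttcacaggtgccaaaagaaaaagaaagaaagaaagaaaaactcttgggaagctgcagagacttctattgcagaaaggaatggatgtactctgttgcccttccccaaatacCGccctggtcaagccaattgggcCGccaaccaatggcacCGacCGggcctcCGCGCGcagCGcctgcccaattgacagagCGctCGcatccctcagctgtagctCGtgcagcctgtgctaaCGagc
ZNF583 chr19:56403764-56404063 (plus strand): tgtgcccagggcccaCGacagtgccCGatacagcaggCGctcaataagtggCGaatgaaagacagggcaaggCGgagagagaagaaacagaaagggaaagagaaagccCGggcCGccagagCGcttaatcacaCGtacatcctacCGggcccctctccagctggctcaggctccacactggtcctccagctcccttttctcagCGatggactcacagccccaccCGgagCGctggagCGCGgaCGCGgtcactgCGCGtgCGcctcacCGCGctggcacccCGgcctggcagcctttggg
The ACSL3 promoter held 41 CG pairs and CCSER1 24, against 10 for EML1, 15 for PCDH15 and 13 for DPP6. ZNF583 held 23, so a CG-dense promoter also occurred without POLR2A. CCSER1 had the word TATAAA and the other promoters shown did not have it.

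Few peaks of either list overlapped the other. Even so, POLR2A summits within 1 kb of H3K9me3 summits stood at 3.69 times their mean density. A base was shared with an H3K9me3 peak by 706 of 19997 POLR2A peaks (3.53%, interval 3.28 to 3.80), which were 691 H3K9me3 peaks (4.21%, 3.91 to 4.53). Of H3K4me3 peaks 2.36% overlapped H3K9me3 (2.14 to 2.60), and of POLR1A peaks 15.6% (14.5 to 16.8). The POLR2A peaks with overlap were stronger, with a median fold enrichment of 7.01 against 5.44. Of the strongest 10% of POLR2A peaks, 9.75% had an H3K9me3 summit within 1 kb, against 2.75% to 4.55% in each lower 10%. Overlap was more frequent away from protein-coding genes. It involved 6.58% of intergenic POLR2A peaks (5.80 to 7.42), 2.74% of those in gene bodies (2.38 to 3.14) and 2.50% of those at gene ends (2.16 to 2.89). Inside the margins 96 of 457 POLR2A peaks overlapped (21.01%, 17.4 to 25.03), against 3.12% outside (2.88 to 3.38). Chromosome 21 had the highest share (8.14%, 18 of 221) and chromosome X the lowest (1.15%, 5 of 436).

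Most of the highest POLR2A peaks with overlap stood at the tips of chromosomes. Of the 8 strongest, 7 lay in the margins and none was within 1 kb of a protein-coding gene. The strongest was chr22:50807806-50808483, with fold enrichments of 53.1 for POLR2A and 24.1 for H3K9me3. The exception outside the margins was chr17:43251410-43252063 at the noncoding LOC124904138 (50.1 and 13.3). Lower in the ranking, and picked after their values were seen, were a peak in ATP11A, a phospholipid flippase gene (26.9 and 8.21), and one at an end of OGA, the enzyme that removes O-GlcNAc from proteins (26.0 and 5.03). POLR1A peaks accompanied the overlap. Of POLR2A peaks on H3K9me3, 53.0% also overlapped POLR1A (49.2 to 56.7), against 12.3% of the rest (11.8 to 12.8). H3K4me3 did not separate them, at 52.1% and 49.96%. All 25 highest POLR2A peaks on H3K9me3 overlapped POLR1A. Their POLR2A fold enrichments were 25.9 to 53.1, and POLR1A at equally strong POLR2A peaks off H3K9me3 was not counted. The part of POLR1A in these overlaps was not tested. The libraries were separate, so an overlap does not show both on 1 chromosome copy.

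From a POLR2A summit the nearest H3K9me3 summit lay at a median of 88.2 kb (86.4 to 90.4, quartiles 32.4 and 194 kb). Within 1 kb stood 3.98% of POLR2A summits, within 10 kb 10.3% (9.86 to 10.7) and within 100 kb 53.8%. Over 1 Mb away were 60 summits (0.300%). From H3K4me3 summits the median was 93.3 kb (91.3 to 95.1) and from POLR1A summits 67.5 kb (64.2 to 72.4). In the opposite direction H3K9me3 summits were farther from POLR2A, at a median of 134 kb (128 to 142), and 14.4% had none within 1 Mb. POLR2A summits at gene ends were 96.2 kb from H3K9me3 (93.1 to 99.2) and those in gene bodies 98.1 kb (94.7 to 102). Intergenic summits were closer, at 63.2 kb (58.6 to 67.0). Inside the margins the median was 25.8 kb (19.8 to 30.9) and outside 90.4 kb (88.2 to 92.7). The strength of the polymerase peak made little difference to the median, which was 83.2 to 94.6 kb over steps of 10% of the list by fold enrichment. The strongest 10% of H3K9me3 peaks were nearer to POLR2A, at 83.7 kb (72.3 to 97.3), than the next 10%, at 126 kb (111 to 156). On chromosome X POLR2A was 247 kb from H3K9me3 (220 to 280), and on the other chromosomes the median ran from 62.6 kb on chromosome 13 to 122 kb on chromosome 16. Chromosome X had the fewest H3K9me3 peaks for its length, 2.37 per Mb. The stricter list, with a −log10 q of at least 5 for both targets, moved the median to 309 kb and the overlap to 1.83%.

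Counted outward from each H3K9me3 summit, POLR2A summits were dense in the first kilobase, sparse just beyond it and close to average after 5 kb. Their density was 24.4 per Mb within 1 kb, which was 3.69 times the mean over the chromosomes (6.60 per Mb). It was 0.688 times the mean at 1 to 2 kb and 0.742 at 2 to 5 kb, then 0.942 at 5 to 10 kb and 0.949 to 0.990 from 10 kb to 1 Mb. H3K4me3 followed a deeper course, with 2.37 times its mean within 1 kb, 0.521 at 1 to 2 kb, 0.593 at 2 to 5 kb and 0.764 at 5 to 10 kb. Around the 3978 H3K9me3 peaks with a −log10 q of at least 5, POLR2A did not fall below its mean. It was 6.63 times the mean within 1 kb, 1.09 at 1 to 2 kb and 1.05 at 2 to 5 kb, which were below the 1.31 at 5 to 10 kb and 1.34 at 10 to 20 kb. H3K4me3 around these peaks was at 0.510 of its mean at 1 to 2 kb. With both lists at that q minimum, POLR2A at 1 to 2 kb stood at 0.674 of its mean, with a wide counting interval of 0.393 to 1.08.

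**Figure D1:**
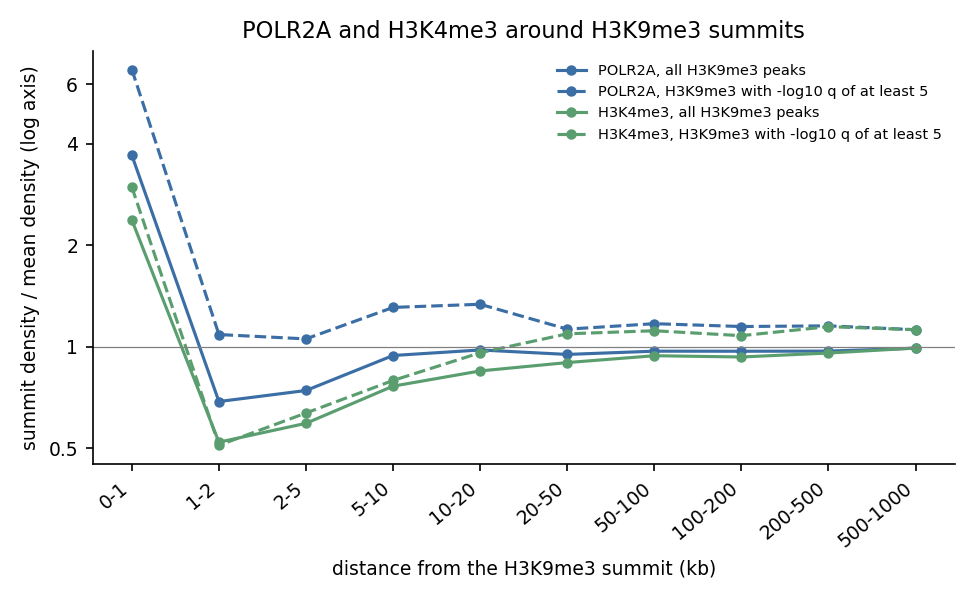
Density of POLR2A (blue) and H3K4me3 (green) summits by distance from H3K9me3 summits in kb, divided by the mean density over chromosomes 1 to 22 and X, on a log axis, with solid lines for all 16414 H3K9me3 peaks and dashed lines for the 3978 with a −log10 q of at least 5. All lines are above 1 in the first kilobase, and both H3K4me3 lines and the solid POLR2A line fall below 1 at 1 to 5 kb.

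Most bins of 1 Mb held both lists, as each list alone reached most bins. Of 2924 bins with a gene or a peak, 2198 held summits of both (75.2%, 73.6 to 76.7). H3K9me3 without POLR2A filled 556 bins, POLR2A without H3K9me3 filled 139, and 31 had neither. Summits of POLR2A were in 79.9% of bins and of H3K9me3 in 94.2%. Lists with shares this high meet in most bins whatever their relation, so the 75.2% does not describe one. The 587 bins without POLR2A held 28.3% of H3K9me3 summits (27.6 to 29.0), with a mean of 7.92 per bin (SD 5.92) against 5.04 in bins with POLR2A. They held 1.47 protein-coding genes on average, against 8.11.

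The relation over bins was not one of steady exclusion. The mean number of H3K9me3 summits was 7.92 in bins with no POLR2A summit, 5.51 with 1 to 2, and lowest, 4.14, with 3 to 5. It was then higher at 4.64 with 6 to 10, 5.58 with 11 to 20 and 5.97 with 21 or more. Bins outside the margins had means of 7.86, 5.38, 4.01, 4.55, 5.35 and 5.50 in these classes, also highest without POLR2A and lowest at 3 to 5. In the 161 bins touching the margins rho was 0.185, with a mean of 8.41 H3K9me3 summits without POLR2A and 12.1 with 21 or more POLR2A summits. The spread within a class was wide, with an SD of 3.47 to 5.92 summits over all bins. Spearman's rho between the counts was -0.107 over the 2924 bins, a description only, since neighbouring bins share chromatin, gene density and library. For H3K4me3 against H3K9me3 rho was -0.150, and for the number of protein-coding genes against H3K9me3 -0.226. Among bins with similar gene number the sign differed. It was -0.0515 over 384 bins with no gene, -0.136 over 1112 bins with 1 to 4 genes, then 0.301 over 783 bins with 5 to 9, 0.262 over 426 bins with 10 to 19 and 0.173 over 219 bins with 20 or more. With only peaks of −log10 q of at least 5 the overall rho was 0.0623, so the weak negative sign did not hold for the stronger peaks.

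**Figure D2:**
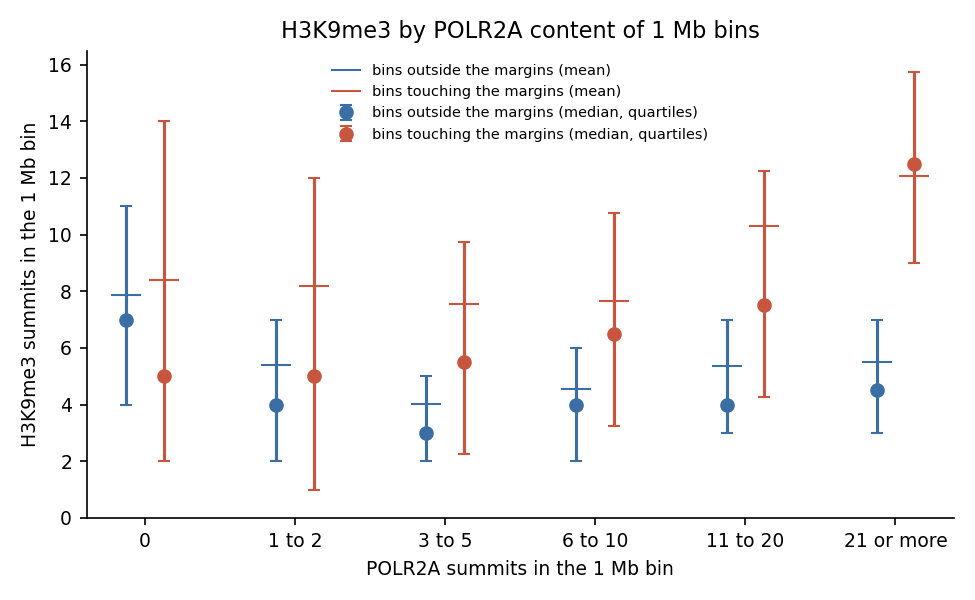
H3K9me3 summits per 1 Mb bin (vertical axis) by the number of POLR2A summits in the bin (horizontal axis), for bins outside (blue) and touching (red) the margins, with points for medians, bars for quartiles and dashes for means. Outside the margins the mean is 7.86 without POLR2A, lowest at 4.01 with 3 to 5 summits and 5.50 with 21 or more.

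The bins at the extremes had distinct content. Most H3K9me3 summits, 41, were at 49 to 50 Mb of chromosome 4, a bin in the margins with 12 POLR2A summits, all 12 on H3K9me3, and 33 POLR1A summits. Chromosome 21 followed at 9 to 10 Mb with 39 H3K9me3 and 5 POLR2A summits. Chromosome 14 at 19 to 20 Mb had 36 H3K9me3 and no POLR2A summit. That bin also held 8 olfactory receptor genes, among them OR4K1 and OR4N2. At 0 to 1 Mb of chromosome 4, by contrast, 33 H3K9me3 and 16 POLR2A summits stood in a bin with the zinc finger genes ZNF141, ZNF595, ZNF718, ZNF721 and ZNF732, and 1 POLR2A peak overlapped. The median distance there was 38.6 kb. Most POLR2A summits, 58, were at 65 to 66 Mb of chromosome 11 with 3 H3K9me3 summits and 49 genes, followed by chromosome 19 at 17 to 18 Mb with 56 and 3. Both lists were dense at 82 to 83 Mb of chromosome 17 (48 POLR2A and 18 H3K9me3 summits, 5 POLR2A peaks overlapping) and at 31 to 32 Mb of chromosome 20 (28 and 21). Of the 311 bins with at least 17 POLR2A summits, 39 also had at least 12 H3K9me3 summits (12.5%, and 12.7% of the 307 bins rich in H3K9me3). Over all bins 10.5% were rich in H3K9me3. No POLR2A summit was found in 141 of the H3K9me3-rich bins.

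Between chromosomes the densities did not oppose each other. Chromosome 19 was highest in both, with 21.2 POLR2A and 8.48 H3K9me3 peaks per Mb, and chromosome X lowest in both, with 2.79 and 2.37. Chromosome 21 had 7.54 H3K9me3 peaks per Mb with 4.73 of POLR2A, and chromosome 13 had 5.37 with 3.29. Over the 23 chromosomes Pearson's r was 0.510 and Spearman's rho 0.0761. Without chromosomes 19 and X, the ends of the range, r was -0.0495 and rho -0.214 over 21. Within chromosomes, rho over bins was below 0 in 23 of 23, from -0.279 on chromosome 22 to -0.00219 on chromosome 21, and also in 23 of 23 without the bins in the margins.

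**Figure D3:**
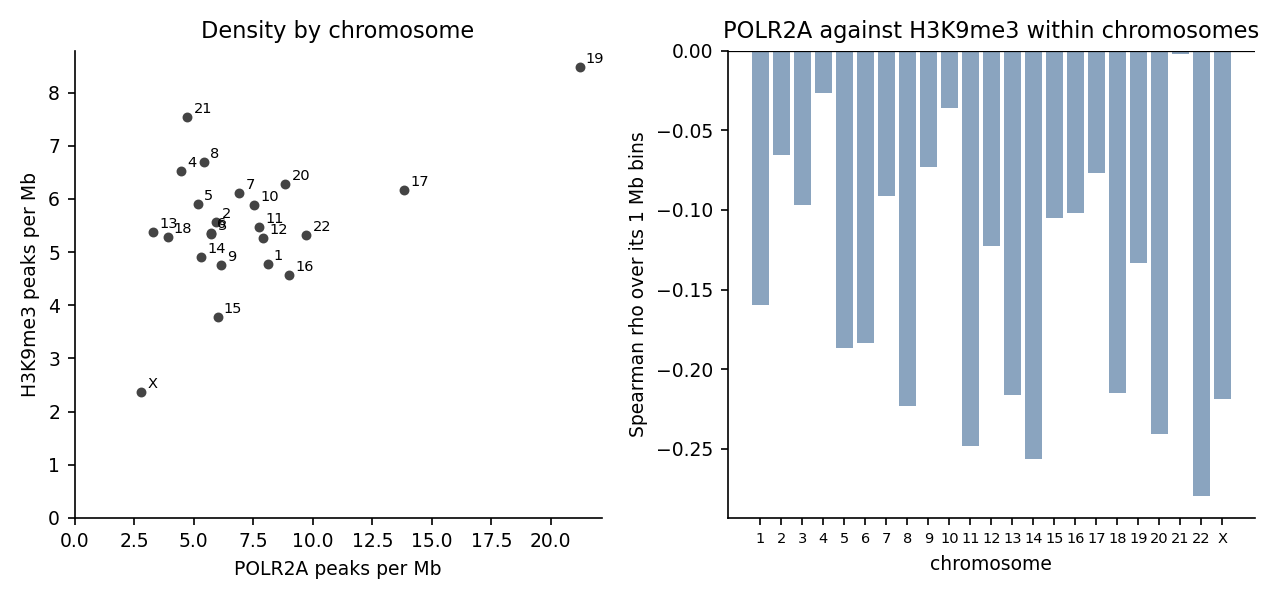
Left, peaks per Mb of POLR2A (horizontal) and H3K9me3 (vertical) for each of 23 chromosomes, labelled by name; right, Spearman's rho between the 2 counts over the 1 Mb bins of each chromosome. Chromosome 19 lies at 21.2 and 8.48, chromosome X at 2.79 and 2.37, and all 23 bars are below 0.

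At genes, the share with POLR2A at an end was slightly lower with H3K9me3 in the body than without, with overlapping intervals. Here and below, with and without H3K9me3 mean with and without a called peak. A gene without a called peak was not shown to lack the mark. H3K9me3 overlapped 2693 of 19821 protein-coding genes (13.6%). Of these, 1074 had a POLR2A peak within 1 kb of an end (39.9%, 38.03 to 41.8), against 7118 of the 17128 without H3K9me3 (41.6%, 40.8 to 42.3) and 41.3% of all protein-coding genes. The fold enrichment of POLR2A at the ends was also close, with medians of 8.98 and 8.83. Genes with H3K9me3 were longer, with medians of 101 kb with POLR2A and 114 kb without it. The medians were 25.2 and 16.4 kb for genes without an H3K9me3 peak. Such a peak was in 2.25% of genes up to 10 kb and in 95.7% of those over 1000 kb. The gap in POLR2A was seen at 30 to 100 kb. There 42.996% of genes with H3K9me3 had POLR2A (39.6 to 46.5) and 50.1% of those without (48.6 to 51.5). Up to 10 kb the shares were 32.0% and 31.8%, at 10 to 30 kb 42.9% and 44.3%, at 100 to 300 kb 42.4% and 43.03%, and over 300 kb 31.1% and 27.3%. The intervals overlapped in those 4 classes. The common (Mantel-Haenszel) odds ratio of POLR2A with H3K9me3 was 0.933 without classes and 0.884 over 20 length classes (0.806 to 0.970). The interval reached past 1 without chromosome 19 (0.920, 0.835 to 1.01) and with only peaks of −log10 q of at least 5 (0.895, 0.770 to 1.04). Where only H3K9me3 summits inside the gene and over 1 kb from both ends were counted, the shares were 37.7% (35.7 to 39.6) and 41.8% (41.1 to 42.6) and the ratio 0.764 (0.692 to 0.844). Over all annotated genes, noncoding ones included, 28.6% of genes with H3K9me3 had POLR2A (27.3 to 29.9) and 19.1% of those without (18.8 to 19.4), and the ratio over length classes was 0.819 (0.761 to 0.881).

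**Figure D4:**
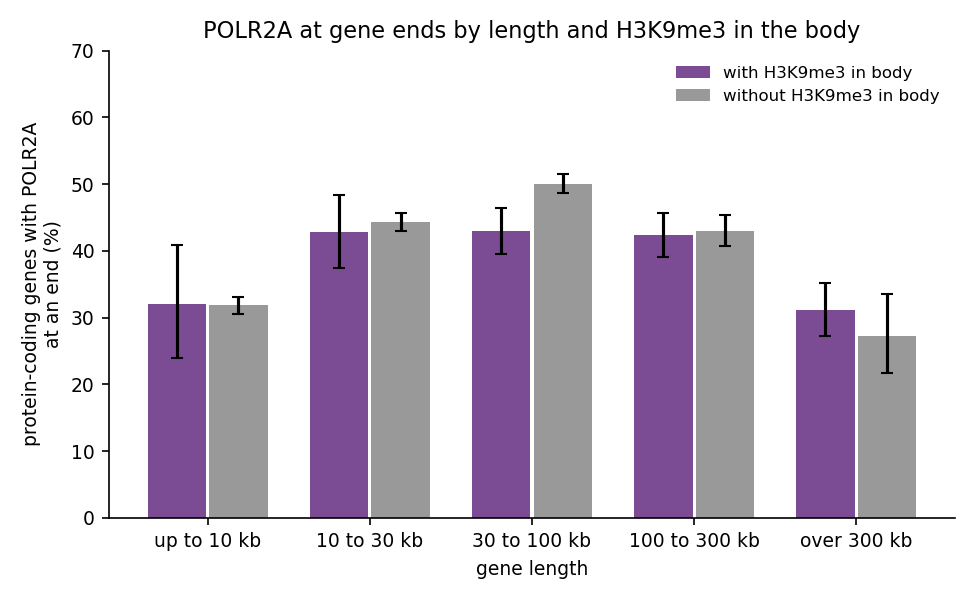
Percent of protein-coding genes with a POLR2A peak within 1 kb of an end, by gene length, for genes with (purple) and without (grey) H3K9me3 in the body, with exact 95% intervals as bars. The shares are 42.996% and 50.1% at 30 to 100 kb, and the intervals overlap in the other classes.

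Genes that combined H3K9me3 in the body with POLR2A at an end resembled other POLR2A genes in H3K4me3, POLR1A and promoter CG pairs, but not in H3K9me3 at an end. H3K4me3 was at an end of 96.6% of them (95.3 to 97.6) and of 96.2% of POLR2A genes without H3K9me3, against 24.2% and 25.5% of the genes lacking POLR2A and 54.6% of all. POLR1A was at an end of 28.3% and 25.6%, against 0.865% and 0.729% (11.2% of all). H3K9me3 was at an end of 19.1% of POLR2A genes with it in the body and 1.55% of those without (2.7% of all). This gap arises partly by definition, since an end includes 1 kb of the body. Among genes with H3K9me3 in the body, the number of its peaks for the length of the gene was 9.52 per Mb with POLR2A and 9.22 without. Genes with no peak were left out by this choice, so the values do not compare H3K9me3 density over all genes. The promoters with RefSeq sequence, 15812 in all, gave medians of 26 CG pairs in 300 bases for both kinds of POLR2A gene, 18 for genes with H3K9me3 and no POLR2A, and 12 for genes with neither. At least 15 pairs were in 86.3% of promoters of genes with both, as in ACSL3 and CCSER1, 56.3% with H3K9me3 alone, 87.7% with POLR2A alone, 46.8% with neither and 65.3% of all. The word TATAAA, searched on both strands, was in 6.18%, 9.06%, 5.10% and 13.9% of these classes and in 9.75% of all.

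With strand known, the polymerase was mostly at the 5′ end. It was there in 40.3% of 2186 genes with H3K9me3 (38.2 to 42.4) and 41.7% of 13626 without (40.8 to 42.5). At the 3′ end the shares were 2.84% (2.18 to 3.62) and 5.33% (4.96 to 5.72). H3K9me3 itself lay along the whole gene. In genes without POLR2A each 10% of the length held 8.51% to 11.3% of the peaks. In genes with POLR2A the first 10% of the length held 17.2% of them (15.3 to 19.3), against 11.2% in the genes without it (10.0 to 12.4), and the last 10% held 6.73%.

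**Figure D5:**
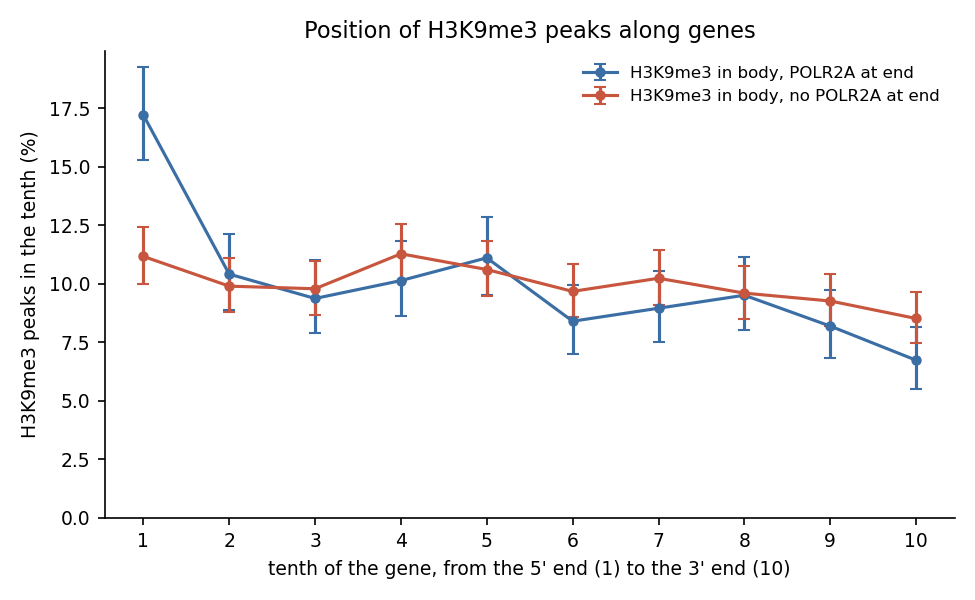
Percent of H3K9me3 peaks in each 10% of the gene's length from the 5′ end to the 3′ end, for genes with H3K9me3 in the body and POLR2A at an end (blue, 1441 pairs of peak and gene) or not (red, 2678), with exact 95% intervals. The first 10% holds 17.2% with POLR2A and 11.2% without.

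H3K9me3 stood within 1 kb of an end of 535 of 19821 protein-coding genes (2.7%). In 220 of the 535, POLR2A was at neither end, and 1.82% of these 220 had POLR1A at an end (0.498 to 4.59). Both peaks were at the same end in 278 genes, and 70.1% had POLR1A there or at the other end (64.4 to 75.5), against 20.9% of genes with POLR2A at an end and H3K9me3 only deeper in the body (18.3 to 23.8) and 24.9% of POLR2A genes without H3K9me3. Their POLR2A was strong, with a median fold enrichment of 13.7 against 8.35 and 8.77, and their H3K9me3 was near the list median (4.81). Among the 8 genes with the strongest POLR2A over a marked body, OGA, SRGAP2, ATP5MC1, MBTD1 and GART were of this kind. OGA had fold enrichments of 26.0 for POLR2A, 5.03 for H3K9me3 and 7.59 for POLR1A. ATP5MC1, which encodes subunit c of ATP synthase, had 24.9, 5.02 and 11.2, and GART, a purine synthesis enzyme, 24.1, 5.50 and 9.11. TRIM37, a ubiquitin ligase, had the strongest POLR2A (28.4), with H3K9me3 of 4.40 at 7.94 kb from its start. The part of POLR1A in these values was not tested.

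The strongest H3K9me3 inside genes occurred with POLR2A as well as without it. ACSL3, a long-chain acyl-CoA synthetase gene, had the highest value with POLR2A at an end. Its single H3K9me3 peak, at chr2:222866178-222866891 and 5.39 kb downstream of the promoter printed above, had a fold enrichment of 28.0, and the promoter had POLR2A of 10.7 and H3K4me3 of 10.4. CLASP1, a microtubule plus-end protein gene, paired H3K9me3 of 17.6 at 171 kb from the start with POLR2A of 11.2. RTF1, an elongation factor of polymerase II, had 13.8 at 9.58 kb with 6.46, and RPTOR, the mTORC1 subunit, 12.1 at 200 kb with 7.23. Without POLR2A the first were TCF20 (27.6), EML1 (22.2), COL23A1 (21.6), MARCHF10 (19.1) and SH3RF3 (18.9). The peak of SH3RF3 also lies in the annotated span of RANBP2, a nuclear pore gene with POLR2A of 10.9, so 1 peak put a gene in each class. TCF20 and EML1 kept H3K4me3 at an end (6.35 and 5.71). COL23A1, MARCHF10 and SH3RF3 had none. In steps of 20% of the genes by H3K9me3 strength, 36.7% to 42.9% of genes had POLR2A, with no order.

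POLR2A was least frequent at the genes with the most H3K9me3 peaks. POLR2A stood at an end of 42.7% of genes with 1 peak (40.4 to 45.1), 35.5% with 2, 40.0% with 3 to 4 and 29.2% with 5 to 9 (21.6 to 37.8). With 10 or more it was at 2 of 43 (4.65%, 0.568 to 15.8). These 43 genes were very long, with a median of 1040 kb. Over 600 kb, 3 of 23 genes without H3K9me3 had POLR2A (13.0%, 2.78 to 33.6), 12 of 58 with 1 to 2 peaks (20.7%, 11.2 to 33.4), 14 of 43 with 3 to 4 peaks (32.6%, 19.1 to 48.5), 11 of 54 with 5 to 9 (20.4%, 10.6 to 33.5) and 2 of 33 with 10 or more (6.06%, 0.743 to 20.2). The intervals of the first and last of these classes overlapped. At 300 to 600 kb the shares were 28.8% with no peak, 36.1% with 1 to 2, 42.7% with 3 to 4, 35.7% with 5 to 9 and 0 of 9 genes with 10 or more (exact upper bound 33.6%). CSMD1, a complement regulator, had the most peaks (34), followed by PCDH15, a protocadherin of inner ear hair cells (28), DPP6, a subunit of potassium channels (26), CNTNAP2, a neurexin relative (25), and EYS, a photoreceptor protein (22). None of the 5 had POLR2A or H3K4me3 at an end. The exceptions with 10 peaks each were CCSER1 and STPG2. At CCSER1, 1478 kb long, POLR2A had a fold enrichment of 19.2 and H3K4me3 of 12.4 at the promoter printed above, and the nearest H3K9me3 summit was 86.2 kb inside the gene. STPG2 had POLR2A of 9.24 and a summit of H3K9me3 6.73 kb from an end. ZNF678 had 8 peaks over 116 kb with POLR2A of 10.6.

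Long neuronal genes were mostly marked and mostly without the polymerase, as were very long genes in general. Of 47 neuronal adhesion and synaptic genes, 39 had H3K9me3 in the body (83.0%, 69.2 to 92.4) and 5 had POLR2A at an end (10.6%, 3.55 to 23.1), against 13.6% and 41.3% of all protein-coding genes. Their median length was 1112 kb, and of the 211 protein-coding genes over 600 kb, 89.1% had H3K9me3 and 19.9% POLR2A (14.7 to 25.9). POLR2A was at 10.3% of the 39 and at 12.5% of the other 8. H3K9me3 alone marked 35, among them DPP10 (13 peaks, highest fold enrichment 18.9) and PTPRT, a receptor phosphatase (15 peaks, 9.83). Both marks were at 4 of them, which included NLGN1 (POLR2A of 5.44), DAB1 (13.2) and CTNNA3 (7.15), and SYT1 had POLR2A alone (6.96). Of 53 clustered protocadherin genes none had POLR2A (exact upper bound 6.72%), and 19 had H3K9me3. Those of the gamma cluster share their peaks, since their annotated spans overlap, with 9 peaks in PCDHGA1. Olfactory receptor genes had POLR2A at 4 of 389 (1.03%) and H3K9me3 at 12 (3.08%), with a median length of 3.00 kb, and no gene had both. OR10H3 had the highest H3K9me3 (6.54).

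Zinc finger genes of chromosome 19, many of which encode repressors of transposable elements, had H3K9me3 more often than all protein-coding genes (13.6%). POLR2A was about as frequent as in all (41.3%). H3K9me3 was in 105 of 251 (41.8%, 35.7 to 48.2) and POLR2A at an end of 102 (40.6%). Both were at 34 (13.5%) on this chromosome and at 47 of 278 zinc finger genes elsewhere (16.9%), against 5.42% of all protein-coding genes. POLR2A was at 34 of the 105 with H3K9me3 (32.4%, 23.6 to 42.2) and at 68 of the 146 without (46.6%, 38.3 to 55.0). Elsewhere 97 of the 278 had H3K9me3 (34.9%), and POLR2A was at 48.5% of these and 48.6% of the rest. The difference between the chromosomes was not tested. ZNF583 had the strongest H3K9me3 on chromosome 19 (9.20), 0.944 kb from the start printed above, and neither POLR2A nor H3K4me3. ZNF507 had H3K9me3 of 8.88 and H3K4me3 of 16.1, also without POLR2A. ZNF584 had the highest POLR2A (23.7) and no H3K9me3, and ZNF8 had both (19.6 and 4.10).

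Ribosomal protein and housekeeping genes often had the polymerase. H3K9me3 was rare in them, as in short protein-coding genes in general. Of all protein-coding genes up to 10 kb, 31.8% had POLR2A at an end and 2.25% had H3K9me3. POLR2A was at 70 of 77 cytosolic ribosomal protein genes (90.9%, 82.2 to 96.3), and H3K9me3 in 2, RPL7 (6.55) and RPS27A (5.02). Both had POLR2A, POLR1A and H3K9me3 within 1 kb of an end. Of 28 housekeeping genes 21 had POLR2A and none had H3K9me3 (exact upper bound 12.3%). Replication-dependent histone genes had POLR2A at 39 of 69 and H3K9me3 at 3 (H4C8, H2BC14 and H2BC13), all 3 with POLR2A. For genes of polymerase II and its elongation factors the counts were 19 of 27 with POLR2A and 2 with H3K9me3, GTF2F2 (6.31) and NELFA (4.95). Their median length was 13.9 kb, and of all protein-coding genes of 10 to 30 kb 44.2% had POLR2A and 6.04% H3K9me3. Among the writers, readers and cofactors of H3K9me3, 15 of 22 had POLR2A (68.2%, 45.1 to 86.1). In their own body 5 had H3K9me3 (22.7%, 7.82 to 45.4), 4 of them with POLR2A as well. Of all protein-coding genes, 41.3% had POLR2A and 13.6% H3K9me3. The median length of this list was 49.96 kb. Of all 5461 protein-coding genes of 30 to 100 kb, 49.0% had POLR2A and 821 had H3K9me3. SETDB2 had POLR2A of 18.98 and H3K9me3 of 6.15, and SETDB1 14.2 and 3.999. The SETDB1 peak, chr1:150925974-150926282, only crossed the annotated start of the gene at 150926263. KDM4B, an H3K9 demethylase that the list also held, had 17.4 and 4.28. EHMT1, which methylates H3K9, had H3K9me3 of 6.78 and H3K4me3 of 9.47 without POLR2A.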

How the data were processed

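CUT&Tag was made from wild type HCT116 cells with antibodies to POLR2A, H3K9me3, POLR1A (3 samples each) and H3K4me3 (1 sample). The authors deposited 1 MACS2-format peak list for each target, and the lists name no replicate. Fold enrichment is the authors' ratio on a linear scale. The −log10 q and the summit of each peak are used as deposited. Nothing was given in the sources used here on caller settings, control, pooling of replicates or read depth. Builds GRCh38 and hg38 are named in the submitters' processing notes, with the tools FastQC 0.12.0, STAR, SAMtools 1.6 and deepTools 3.1.1, without roles. With 1 list for a target, no mean, SD or p-value over replicates could be given.

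Peaks on chromosomes 1 to 22 and X were used. Overlap means a shared base. Genes came from a RefSeq table (GRCh38.p14) of 59792 genes, of which 679 placed on scaffolds or patches were left out. A gene body is the annotated span, and an end is 1 kb on both sides of its start or end. Strand was known for the 15812 protein-coding genes with a promoter sequence. Of the gene lists, 1 housekeeping symbol was not found. Named genes were the strongest, or those with the most peaks, in each class and list. Named bins were those with the most summits of either target and the highest product of both. The members and lists were chosen with earlier results of these data known. Scripts (Python 3.11.15, pandas 2.3.3, numpy 2.4.6, scipy 1.17.1) were tested on simulated data.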

Additional observations from a re-analysis of the deposited data

Results flagged for a closer look

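The lists also held peaks outside chromosomes 1 to 22 and X, which entered no comparison: 319 for POLR2A and 795 for H3K9me3. Most lay on unplaced or alternative contigs (286 and 645). Of these 319 POLR2A peaks, 113 overlapped H3K9me3 (35.4%, exact interval 30.2 to 40.9), against 3.53% on the chromosomes. The part of reads from repeated sequence in this share was not tested.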

How the results depend on the processing

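The overlap share, the median distance, the share within 10 kb, the shares in bins and the shares of genes were recomputed under 50 combinations of result and setting. Of these, 22 stayed inside the interval of the reported value, and the cause of the other changes was not tested. With a −log10 q of at least 5, the overlap was 1.83%, the median distance 309 kb, the share within 10 kb 3.57%, the share of H3K9me3 in bins without POLR2A 33.0%, bins with both 43.1%, and genes with POLR2A 30.3% with H3K9me3 and 33.2% without. This setting keeps fewer peaks, and Spearman's rho over bins became 0.0623. With lists of equal length, the overlap was 3.84%, the bin shares 33.2% and 71.2%, and genes without H3K9me3 had POLR2A in 40.6%. Without the margins, the overlap was 3.12%, the distance 90.5 kb, the share within 10 kb 9.69%, and genes without H3K9me3 40.6%. An overlap of at least 50% of the POLR2A peak gave 2.94%. Bins of 500 kb gave 41.2% of H3K9me3 without POLR2A and 53.4% of bins with both, bins of 2 Mb 14.3% and 89.8%, and shifted bins 27.6%. Gene end windows of 500 bp gave 36.8% with and 38.1% without H3K9me3, windows of 2 kb 42.96% and 44.9%, H3K9me3 over 1 kb inside the gene 37.7% with it, and the use of all annotated genes 28.6% and 19.1%. That last setting put the share above, not below, that of genes without H3K9me3. Leaving out chromosome 19 or peaks that share an exact edge kept every one of these results inside its interval. The common odds ratio over 20 length classes was 0.764 to 0.920 under its settings. The correlation, the odds ratio and the density ratio were added after the data were seen. No paired analysis was possible because each target has 1 list that names no replicate.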
